A study of Mus musculus with 6 samples.

Results

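Pmvk, Nsdhl, Lss and Dhcr7 encode 4 enzymes of cholesterol synthesis whose transcripts were followed on arrays in TM4 cells, a mouse Sertoli cell line, after siRNA against Gata4. All 4 were lower in Gata4 siRNA cells, Pmvk and Nsdhl at 0.490 and 0.491 of the NT siRNA intensity and Lss and Dhcr7 at 0.674 and 0.659. They were selected on their change in this very contrast, being taken by gene symbol from the authors' deposited table of probes called changed between the 2 groups, and each had 1 probe there. They are 4 of the 2004 genes named in that table. Because the authors' calls on these same arrays supplied the names, the group differences of the 4 enzymes below are a description without a test, and their direction is not evidence of its own.

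Gata4 siRNA cells received a pool of 4 siRNAs against Gata4, which encodes a DNA-binding factor active in gonads and heart. NT siRNA cells received 1 non-targeting siRNA, abbreviated NT. Both groups were transfected with a lipid reagent at a final 0.1 µM, came from the same line, and had 3 samples each, with total RNA hybridized to an Illumina MouseWG-6 v2.0 BeadChip. TM4 is a single immortalized line, its passage is given as 12 by the labels of the samples but as 13 by the protocol, and separate cultures are not stated for the replicates, so the errors may cover technical spread alone. The level of Gata4 was not analysed here, so the knockdown is not checked by its target. In RNA from whole cultures, fewer cells of a kind and less RNA per cell cannot be told apart.

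Cells build cholesterol from acetyl-CoA through mevalonate, the isoprenoid diphosphates, squalene and lanosterol, the earliest sterol of the route. The genes of the route are known as targets of the sterol regulatory element binding proteins (SREBPs), membrane-bound factors held in the endoplasmic reticulum by Scap and the Insig proteins while sterol is plentiful and cut free by the Mbtps proteases when it is scarce. Sertoli cells, which nurse the germ cells of the testis, handle large amounts of lipid, including that of the residual bodies they engulf. Pmvk phosphorylates mevalonate phosphate to the diphosphate, before the isoprenoids. Lss folds oxidosqualene into lanosterol. Nsdhl is a dehydrogenase in the removal of methyl groups from the sterol ring, and Dhcr7 is a reductase at the end of the route.

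The 250 bases before a RefSeq start of each enzyme gene (assembly GRCm38.p6) are shown so that the promoter regions of genes whose transcripts were lower together can be read side by side. Capitals mark the CCAAT box, the word bound by the factor NF-Y, which is known to act beside SREBPs, on either strand (ATTGG on the strand printed). Where a gene had several starts, the window with the most matches is printed, a choice made after the matches were seen.
Pmvk (chr3:89454291-89454540, + strand): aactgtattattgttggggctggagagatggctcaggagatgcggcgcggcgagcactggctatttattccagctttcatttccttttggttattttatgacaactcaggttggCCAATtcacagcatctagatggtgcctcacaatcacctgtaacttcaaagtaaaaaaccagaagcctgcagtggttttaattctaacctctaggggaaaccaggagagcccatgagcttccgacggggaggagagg
Nsdhl (chrX:72918271-72918520, + strand): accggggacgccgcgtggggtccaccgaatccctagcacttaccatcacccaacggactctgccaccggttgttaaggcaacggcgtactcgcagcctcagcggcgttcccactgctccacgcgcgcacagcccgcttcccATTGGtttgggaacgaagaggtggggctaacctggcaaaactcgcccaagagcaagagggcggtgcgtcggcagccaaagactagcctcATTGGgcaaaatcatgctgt
Lss (chr10:76531355-76531604, + strand): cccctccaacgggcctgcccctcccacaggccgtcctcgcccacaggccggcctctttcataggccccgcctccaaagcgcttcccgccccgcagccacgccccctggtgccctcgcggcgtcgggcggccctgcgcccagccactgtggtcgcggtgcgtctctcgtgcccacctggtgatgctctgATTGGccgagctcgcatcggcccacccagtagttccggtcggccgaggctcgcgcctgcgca
Dhcr7 (chr7:143829964-143830213, + strand): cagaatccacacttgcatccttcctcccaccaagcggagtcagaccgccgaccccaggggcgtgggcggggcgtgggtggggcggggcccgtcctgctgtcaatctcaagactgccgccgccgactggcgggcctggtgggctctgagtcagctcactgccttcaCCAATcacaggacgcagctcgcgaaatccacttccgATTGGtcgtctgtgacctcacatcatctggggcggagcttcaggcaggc
The printed windows of Nsdhl and Dhcr7 held 2 CCAAT boxes each and those of Pmvk and Lss 1 each. Of all 7 windows of these genes, 4 held the word, since the other Pmvk window and the other 2 Dhcr7 windows held 0. The box nearest its start began 20 bases before it in Nsdhl and the farthest 136 bases before it in Pmvk. Among 32851 windows of the same length in the table, 33.85% held at least 1 CCAAT. Counted by gene, 37.495% of 27025 genes had it in some window, against 7 of the 8 named synthesis genes with a window, Mvk, Mvd and Msmo1 among them and Acat2 the exception. Genes with more starts have more windows to match in.

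Other words were searched on both strands of the same windows, and no match of 1 word overlapped that of another. GGGCGG, the GC box of Sp1, stood in 32.742% of all windows. It stood in the windows of Nsdhl and Lss and in those of Dhcr7 except at its second start, but in neither window of Pmvk. Acat2, Msmo1, Mvd and Mvk had it too, so Pmvk alone lacked it among the named synthesis genes with a window. Counted by gene, 35.356% of all genes had it in some window. The CCAAT box thus does not stand out from the GC box in these genes. TCACNCCAC, a form of the sterol regulatory element, matched 0 of the 7 windows and 1.053% of all. CACGTG, the E-box, matched 1 Dhcr7 window and 6.021% of all. The words of GATA factors, which are GATAA or GATAG with an A or a T before them, matched 1 of the 7 windows, at the second start of Dhcr7, and 26.538% of all windows. A match is a run of letters and not a measured site.

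**Figure D1:**
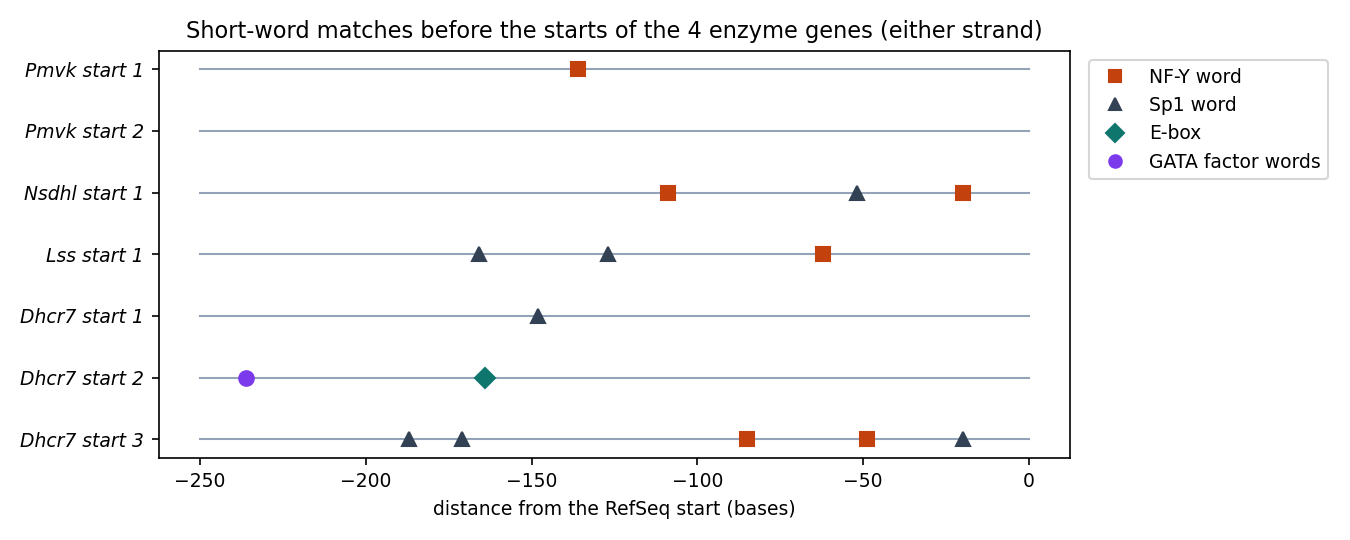
Positions of word matches on either strand in the 250 bases before each RefSeq start of the 4 enzyme genes, with distance from the start in bases on the horizontal axis and 1 line per start. Squares (NF-Y word) stand on 4 of the 7 lines, triangles mark the Sp1 word, the diamond the E-box and the circle a GATA factor word.

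All 4 enzymes had lower intensity in Gata4 siRNA cells than in NT siRNA cells, Pmvk and Nsdhl by more than Lss and Dhcr7. Values are deposited intensities in linear array units, background-subtracted and brought to a common distribution by the authors' processing. Each of the 4 probes lay above the noise floor of 17.1 units on all 6 arrays. Levels of different probes are not compared, since each probe has its own response.

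Pmvk had 445.9, 399.8 and 480 units on Gata4 siRNA arrays 1 to 3, against 893.4, 930.8 and 884 units on NT siRNA arrays 1 to 3. The highest Gata4 siRNA array lay 404 units below the lowest NT siRNA array, so the groups did not overlap. The means were 441.9 ± 40.2 in Gata4 siRNA cells and 902.7 ± 24.8 in NT siRNA cells (SD, n = 3 each), a ratio of 0.490. On the scale used for fitting, log2 of the background-modelled value plus 16, the difference was -1.01 ± 0.12 (SE).

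Nsdhl had 112.2, 96.2 and 93.9 units on the Gata4 siRNA arrays, against 221.1, 205.1 and 188.9 units on the NT siRNA arrays. Array 1 was the highest in both groups, and 76.7 units separated the groups. Mean intensity was 100.8 ± 10.0 in Gata4 siRNA cells and 205.0 ± 16.1 in NT siRNA cells, a ratio of 0.491. Its log2 difference of -0.92 ± 0.12 (SE) was nearer 0 than that of Pmvk at almost the same ratio, because adding 16 to each value shrinks the differences of dim probes most.

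Lss had 1129.5, 1146.4 and 1177.4 units on the Gata4 siRNA arrays, against 1843.9, 1620.8 and 1662 units on the NT siRNA arrays. Its Gata4 siRNA arrays lay close together, with a coefficient of variation of 2.11%, against 6.95% among the NT siRNA arrays, where array 1 was highest. The ratio of the means was 0.674 and the log2 difference -0.56 ± 0.11 (SE).

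Dhcr7 had 159, 152 and 155.3 units on the Gata4 siRNA arrays, against 251.5, 210.8 and 245.5 units on the NT siRNA arrays. NT siRNA array 2 was the lowest of its group and still 51.8 units above the highest Gata4 siRNA array. The coefficient of variation was 2.25% in Gata4 siRNA cells and 9.31% in NT siRNA cells. The ratio of the means was 0.659 and the log2 difference -0.55 ± 0.12 (SE).

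**Figure D2:**
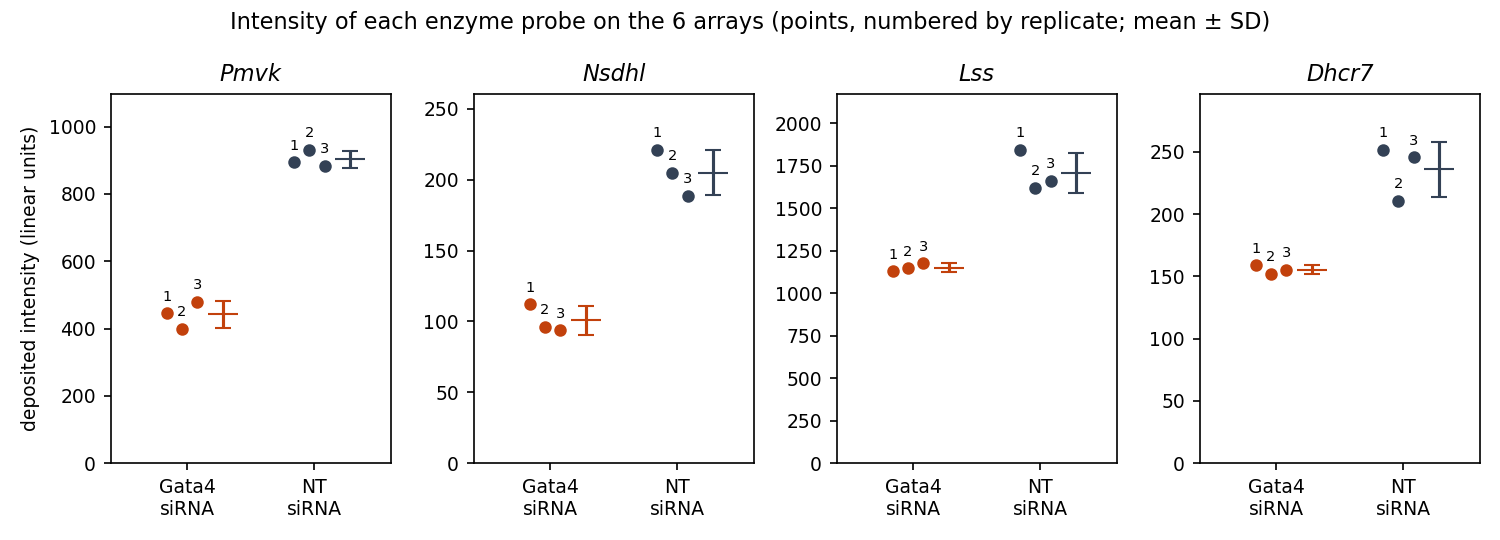
Deposited intensity (linear units, each vertical axis from 0) of the Pmvk, Nsdhl, Lss and Dhcr7 probes on 3 Gata4 siRNA arrays (left) and 3 NT siRNA arrays (right), with points numbered by replicate and the mean ± SD beside them. The groups are apart in each panel, with ratios of means of 0.490, 0.491, 0.674 and 0.659 from left to right.

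Expressed as a share of the NT siRNA mean of the same probe, the Gata4 siRNA arrays ran from 44.3% to 53.2% for Pmvk and from 45.8% to 54.7% for Nsdhl. They ran from 66.1% to 68.9% for Lss and from 64.4% to 67.4% for Dhcr7. The NT siRNA arrays themselves ran from 89.3%, for Dhcr7 on array 2, to 107.9%, for Lss on array 1. The shares of Pmvk and Nsdhl overlapped each other, as did those of Lss and Dhcr7, while the shares of Pmvk and Nsdhl did not reach those of Lss and Dhcr7. These orders were read from the same contrast and were not tested.

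Within a group, the 4 enzymes deviated to the same side on Gata4 siRNA array 2 alone, and shared deviation was not tested. On Gata4 siRNA array 2 all 4 lay below their group means on the log2 scale. Pmvk was at -0.14, Nsdhl at -0.05, Lss at -0.01 and Dhcr7 at -0.03. The value of Lss lay within its log2 SD of 0.03 among the Gata4 siRNA arrays, so the shared side may be spread between arrays. On Gata4 siRNA array 1 Nsdhl lay 0.14 above its group mean on the log2 scale, while Lss lay at -0.03. Pmvk was 0.12 above its mean on Gata4 siRNA array 3, where Nsdhl was at -0.08. On NT siRNA array 1 Nsdhl, Lss and Dhcr7 were 0.10, 0.11 and 0.09 above their means and Pmvk was at -0.01. On NT siRNA array 2 Lss and Dhcr7 were at -0.07 and -0.15, while Pmvk was at 0.04.

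Against all probes, 0.744% of the 17740 probes tested had a lower log2 difference than Pmvk and 1.05% a lower one than Nsdhl. For Lss and Dhcr7 these shares were 5.45% and 5.73%. The median over all probes tested was 0.01. Non-overlapping groups with Gata4 siRNA lower, found for 4 of 4 enzymes, were found for 16.2% of the probes tested and 49.2% of the 1991 named genes tested. In the higher direction they were found for 17.0% of the probes tested and for the other 50.8% of named genes, so every named gene tested shows separated groups, and nothing is read from this count for the enzymes.

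**Figure D3:**
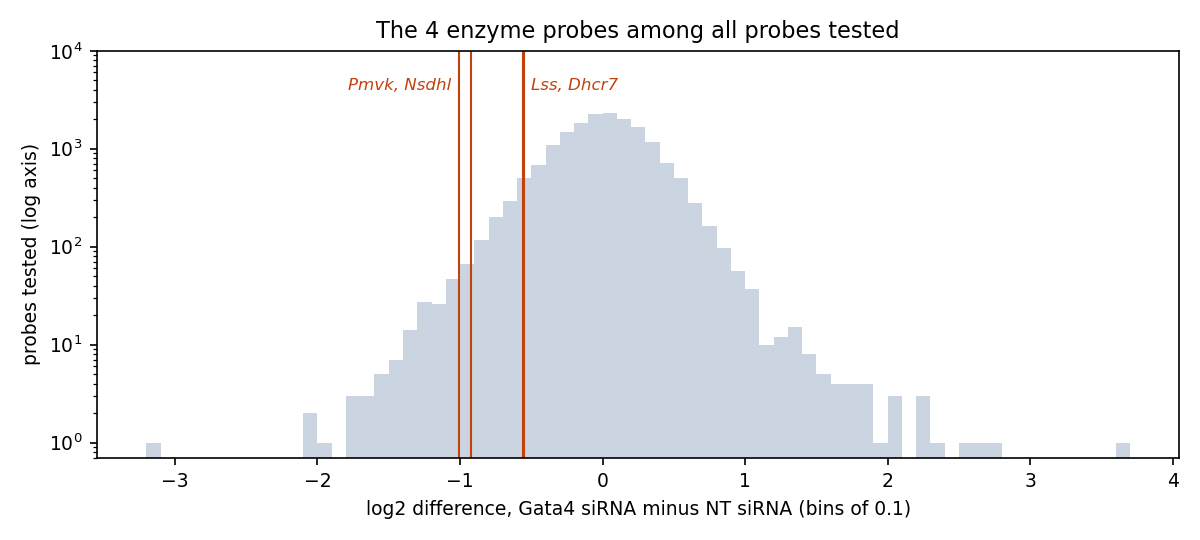
Number of probes (log axis) by log2 difference, Gata4 siRNA minus NT siRNA, in bins of 0.1 over the 17740 probes tested, with vertical lines at the 4 enzyme probes. Pmvk and Nsdhl lie in the left tail at -1.01 and -0.92, and the lines of Lss and Dhcr7 nearly coincide at -0.56 and -0.55.

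Of a list of 21 genes of the route from acetyl-CoA to cholesterol, 9 were named, the 4 enzymes among them, and the other 12 have no named probe here. All 9 had negative log2 differences, with a median of -0.55. The 4 enzymes are left out of the count of calls, since they were chosen for this contrast. In limma's fit, with p-values adjusted over all 17740 probes, 3 of the other 5 were lower at an adjusted p under 0.05 and 2 did not pass. Their median was -0.44. Calls in either direction made up 8.78% of all probes tested, and lower calls 4.71% of all probes tested and 29.5% of the named genes tested. The authors' selection chose every name on these arrays, so the count says nothing about the 12 genes without one. It was 1 without NT siRNA array 3 and 0 without any other single array.

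Upstream of Pmvk, Acat2, which joins acetyl-CoA units, fell by 0.44 ± 0.11 (log2 difference ± SE; adjusted p = 0.0495). Mvk, the kinase that acts just before Pmvk, was at -0.49 ± 0.14 and did not pass (adjusted p = 0.0713). It had 446.4, 459.9 and 570.6 units on the Gata4 siRNA arrays, against 747.6, 720.6 and 615.3 units on the NT siRNA arrays, so that the third arrays of the groups came nearest to each other.

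Mvd, the decarboxylase that acts just after Pmvk, fell by 0.61 ± 0.14 (adjusted p = 0.0351). It had 1000.4, 767.2 and 901.3 units on the Gata4 siRNA arrays, against 1472, 1377.4 and 1239.6 units on the NT siRNA arrays. The 3 successive steps from mevalonate to isopentenyl diphosphate, those of Mvk, Pmvk and Mvd, thus each had lower values on every Gata4 siRNA array than on any NT siRNA array, as all named genes with a negative difference did.

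Fdps, which makes farnesyl diphosphate, had 3 named probes. Its brightest probe fell by 0.41 ± 0.11 (adjusted p = 0.0499), with 11261 ± 252 units in Gata4 siRNA cells and 15015 ± 54 units in NT siRNA cells (SD, n = 3 each). The other 2 probes fell by 0.70 ± 0.12 (adjusted p = 0.0146) and by 0.74 ± 0.18 (adjusted p = 0.0404). The probe with the fall of 0.70 carries the symbol of a predicted locus in the table and took its name from the gene number beside it. The size of the Fdps difference depends on the probe and was smallest for the brightest.

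Between Lss and Dhcr7, Msmo1, the oxidase that works with Nsdhl on the sterol methyl groups, was at -0.39 ± 0.12 and did not pass (adjusted p = 0.0769). It had 1508.8, 1434.4 and 1679.8 units on the Gata4 siRNA arrays, against 1956.6, 2111.3 and 2001.4 units on the NT siRNA arrays. Its difference was nearer 0 than the -0.92 of Nsdhl, which was not tested.

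**Figure D4:**
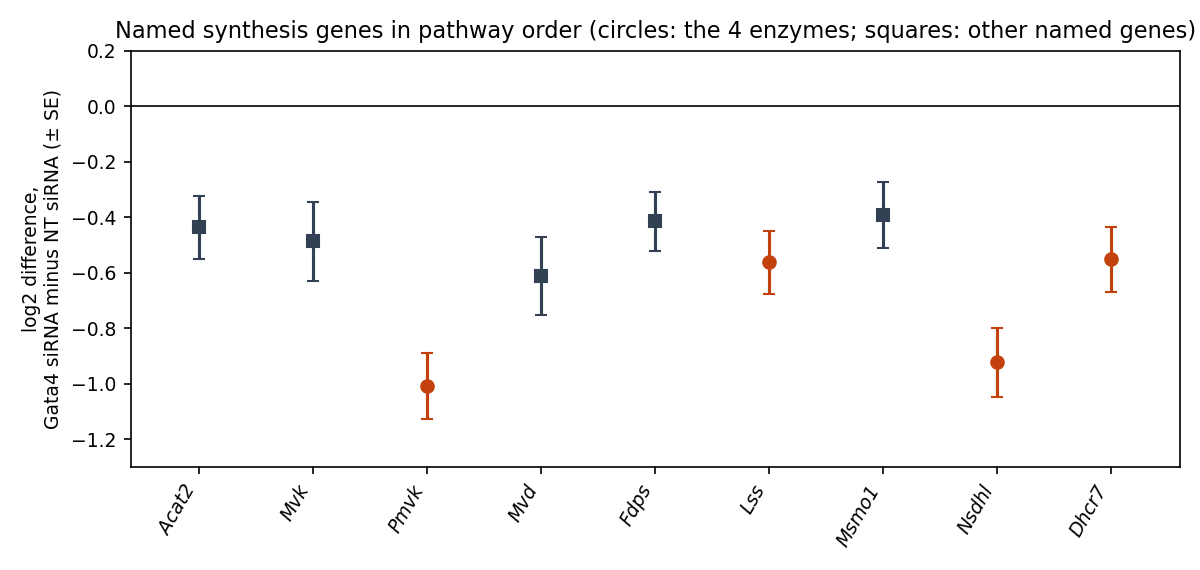
Log2 difference, Gata4 siRNA minus NT siRNA (± SE), of the genes of cholesterol synthesis in the order of the route, with circles for Pmvk, Lss, Nsdhl and Dhcr7 and squares for the other 5 named genes. All 9 points lie below 0, from -1.01 for Pmvk to -0.39 for Msmo1.

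Named genes of sterol supply and control had differences of both signs. Of 33 listed, 13 were named, of which 6 were lower, 3 were higher and 4 did not pass, with a median log2 difference of -0.31. The higher calls are Npc1, Erlin2 and Mbtps1. Mbtps1 passed the filter on dim probes through the Gata4 siRNA group, where it is high, so nothing is read from its call. Lower calls made up 4.71% of all probes tested and 29.5% of the named genes tested. Higher calls made up 4.07% of all probes tested and 25.9% of the named genes tested. The authors' selection supplied these names too, and nothing is read from these counts for the list. Without single arrays the lower count ranged from 2 to 5, with 2 without Gata4 siRNA array 1, Gata4 siRNA array 2 or NT siRNA array 1, 3 without Gata4 siRNA array 3 or NT siRNA array 2 and 5 without NT siRNA array 3. With each single array left out in turn the higher count was 1, and that call was Mbtps1 each time.

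Both Insig genes, whose proteins retain the SREBP complex in the endoplasmic reticulum, passed: Insig1 fell by 0.50 ± 0.11 (adjusted p = 0.0353) and Insig2 fell by 0.68 ± 0.13 (adjusted p = 0.0223). These calls depended on single arrays. Insig1 did not pass with any single array left out (adjusted p from 0.0538 to 0.12). Insig2 then passed only without NT siRNA array 2 or 3 (adjusted p = 0.0469 and 0.0391). Insig1 had 361.5, 359.4 and 339.5 units on the Gata4 siRNA arrays, against 518.5, 469.5 and 528 units on the NT siRNA arrays. Mbtps1, the protease that makes the earlier cut in SREBPs, had 54.2, 49.8 and 41.3 units in Gata4 siRNA cells against 15.6, 20.1 and 9 units in NT siRNA cells. Only 1 NT siRNA array exceeded the noise floor for this probe, and the size of its difference depends on how dim values are treated, from 0.37 with 100 added to each value to 1.77 with values floored at 1 on the log2 scale.

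Among lipoprotein receptors, Vldlr fell by 0.90 ± 0.13 (adjusted p = 0.00798) and Lrp8 fell by 0.67 ± 0.13 (adjusted p = 0.0216). Lrp8 is dim, and with 100 added to each value it was at -0.26 and did not pass (adjusted p = 0.0605). It also did not pass without Gata4 siRNA array 1 or 2 or NT siRNA array 1 or 2 (adjusted p = 0.0617, 0.0958, 0.0521 and 0.0635). The oxysterol-binding proteins Osbp and Osbpl8 fell by 0.58 ± 0.13 (adjusted p = 0.0321) and by 1.26 ± 0.15 (adjusted p = 0.00524), although the dim Osbpl8 probe was at -0.56 with 100 added to each value. With single arrays left out, Osbp passed only without NT siRNA array 3 (adjusted p = 0.0478). In the opposite direction, Npc1, which exports cholesterol from lysosomes, rose by 0.47 ± 0.11 (adjusted p = 0.0426). Erlin2, a membrane protein of the endoplasmic reticulum, rose by 0.51 ± 0.12 (adjusted p = 0.041). Neither Npc1 nor Erlin2 passed with any single array left out (adjusted p from 0.0642 to 0.149 and from 0.0658 to 0.123). The remaining 4 genes did not pass: the sterol-esterifying enzyme Soat1 at 0.39 ± 0.13, the electron carrier Cyb5b at 0.40 ± 0.12, the sterol carrier Stard4 at -0.31 ± 0.12 and the oxysterol receptor Nr1h2 at -0.29 ± 0.12.

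The branches that leave the route at farnesyl diphosphate were thinly covered, with 2 of 15 listed genes named. Nus1 and Dolk, both of dolichol synthesis, were at 0.43 ± 0.12 (adjusted p = 0.0646) and 0.43 ± 0.13 (adjusted p = 0.0775), and neither passed. Both had a sign opposite to that of the 9 synthesis genes.

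Of 19 genes listed as lipogenic for the SREBP regulators they share with the sterol route, 7 were named, of which 6 were lower, 0 were higher and 1 missed the threshold. The list median was -0.61. Lower calls were 4.71% of all probes tested and 29.5% of named genes tested, and the authors' selection supplied these names too. Mvd, an enzyme of the sterol route, belongs to this list too. Its call, already given above, is 1 of the 6 lower calls, and its value is the list median. Acss2, which makes acetyl-CoA from acetate, fell by 1.16 ± 0.17 (adjusted p = 0.00958), and the phosphatidate phosphatase Lpin1 fell by 1.21 ± 0.14 (adjusted p = 0.00474), with the dim Lpin1 probe at -0.60 with 100 added to each value. The desaturases Scd2, Fads1 and Scd1 fell by 0.67 ± 0.11, by 0.57 ± 0.11 and by 0.46 ± 0.12 (adjusted p = 0.0126, 0.0238 and 0.0479). Fads2 was at -0.48 ± 0.14 and did not pass by its brighter probe (adjusted p = 0.0636), while its dimmer probe fell by 0.55 ± 0.13 (adjusted p = 0.0373). The count of 6 was 2 without Gata4 siRNA array 1 or 2, and 3 without Gata4 siRNA array 3, NT siRNA array 1 or NT siRNA array 2.

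**Figure D5:**
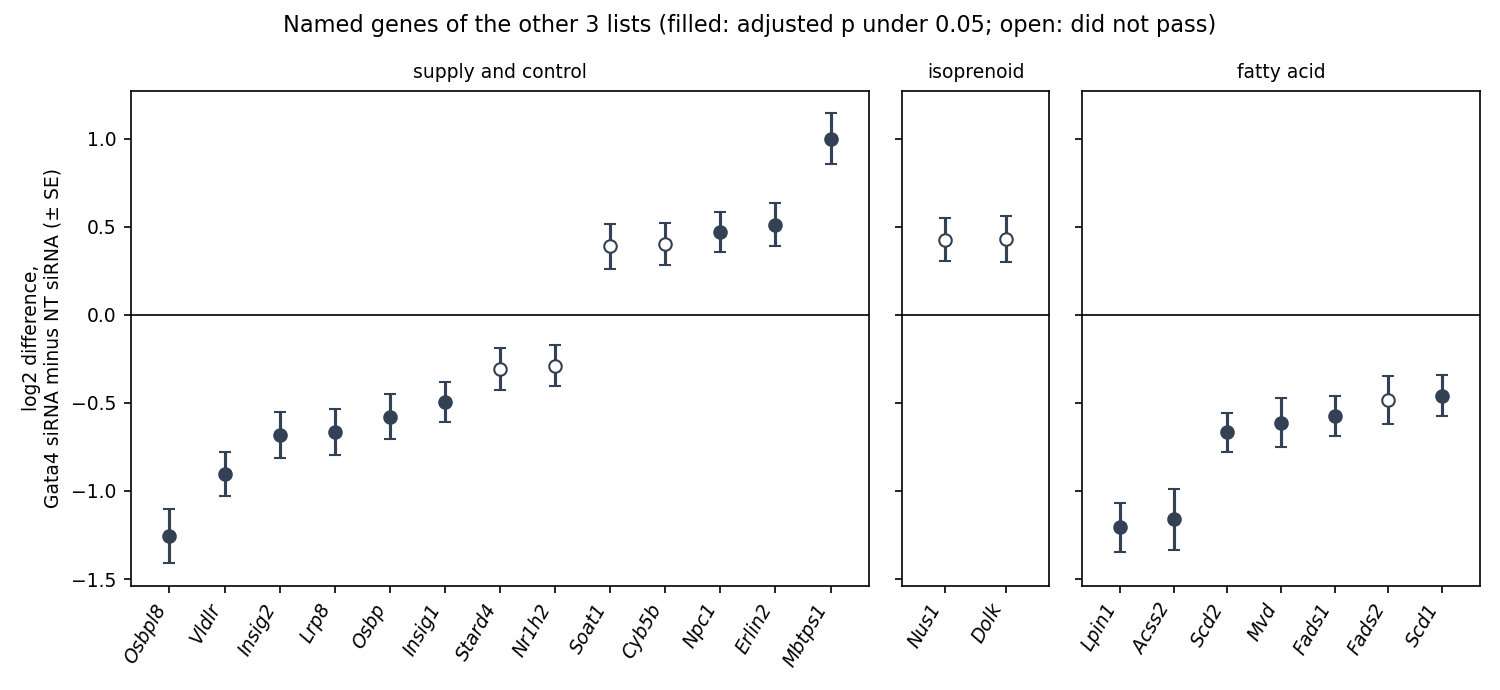
Log2 difference, Gata4 siRNA minus NT siRNA (± SE), of the named genes of sterol supply and control, of the isoprenoid branches and of fatty acid synthesis, ordered by value within each panel, with filled points at an adjusted p under 0.05. The supply and control genes run from -1.26 for Osbpl8 to 0.51 for Erlin2, apart from Mbtps1 at the far right. Mbtps1 is plotted at 1.00 and rests on an NT siRNA level mostly below the noise floor. The 7 genes of the fatty acid panel, Mvd of the sterol route among them, all lie below 0.

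The named genes whose profiles over the 6 arrays lay nearest to the enzymes, by root mean square distance between log2 values centred on each gene's own mean, were of mixed kinds. Nearest to Pmvk were Fbn1, the matrix protein fibrillin, at 0.0498, then Sgcd at 0.0642 and Rgma at 0.0796, while the median named gene lay at 0.646. Nearest to Nsdhl were Lpl, lipoprotein lipase, at 0.0551 and Etfbkmt at 0.0562. Olfr1317 also ranked among the 3 nearest to Nsdhl, but no Gata4 siRNA array was above the noise floor for it, so no distance is given. Lss had Mpnd at 0.0394, A130062D16Rik at 0.0424 and Aldh1l2 at 0.0439, and Dhcr7 had 5031439A09Rik at 0.0366, A130062D16Rik at 0.0426 and Hmgxb4 at 0.0448. Among the enzymes themselves, Lss and Dhcr7 lay 0.0578 apart and Pmvk and Nsdhl 0.126 apart, so each enzyme had named genes of other functions nearer to it than any of the other 3. These distances rest on 6 arrays, and the group difference is part of every profile.

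Markers of cell types were mostly without a named probe. Of 19 Sertoli markers 2 were named: Sox9 rose by 0.59 ± 0.11 (adjusted p = 0.0215) and Inhbb fell by 0.53 ± 0.12 (adjusted p = 0.0349). With single arrays left out, Sox9 passed only without NT siRNA array 3 (adjusted p = 0.036, against 0.0505 to 0.0787 without the others). Sox9 had 1453 ± 85 units in Gata4 siRNA cells and 961 ± 36 units in NT siRNA cells, and Inhbb had 1378 ± 17 units in Gata4 siRNA cells and 2008 ± 208 units in NT siRNA cells (SD, n = 3 each). Of 7 peritubular and smooth muscle markers 4 were named and all 4, Acta2, Actg2, Mylk and Tagln, were higher by their brightest probes, where higher calls were 4.07% of all probes tested and 25.9% of named genes tested. The other 3 Acta2 probes did not pass (adjusted p = 0.0535, 0.0596 and 0.122). The summed intensity of the 4 brightest probes, most of it from Acta2, was 18912 to 21318 on the Gata4 siRNA arrays and 12757 to 14165 on the NT siRNA arrays. The macrophage marker Cd14, 1 of 5 listed, did not pass (adjusted p = 0.0804). It had 716 to 782 units in Gata4 siRNA cells and 520 to 619 units in NT siRNA cells. Of the germ cell, Leydig and endothelial lists 0 genes were named, and none of the named markers was at 0. These levels moved with the same groups as the enzymes, and their part in the enzyme differences was not tested.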

How the data were processed

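Biotin-labelled RNA of 6 TM4 samples was hybridized to bead arrays, per the labels' protocols. The value table that the authors deposited gives an intensity for each probe on each array. The submitters' processing notes name GenomeStudio. Its version is not given in the sources used here. The values show that these intensities were background-subtracted (37.1% lie below 0) and brought to a common distribution (array medians 6.7 to 6.8). Another 18 per-array columns carry names found in no sample label and were not used. Sample titles gave the groups and replicate numbers, since the design text numbers the controls 3 to 6 although each group has 3 samples.

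Intensities were passed through normexp with a background mean of 0 and SD of 9.40, estimated from the values below 0, then 16 was added and log2 taken. Of 45269 probes, 17740 exceeded the noise floor (95% of the negative values are smaller than it in size) on 3 or more arrays. These were tested two-sided with limma 3.58.1 (lmFit, eBayes) under R 4.3.3, and p-values were adjusted by the method of Benjamini and Hochberg. Every adjusted p comes from this fit unless an array left out or a number added is named with it. Those come from the same model refitted with that change. The script was tested on simulated data. Precision is limited by having 3 arrays in each group.

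Probes were named by the symbols in the table of called probes that the authors deposited, brought up to date through gene numbers with RefSeq (GRCm38.p6). Of its 2415 probes, 1740 needed no change, 468 received a newer symbol and 195 stayed as deposited. A further 9 were dropped for a conflict between symbol and number and 3 because the symbol had become a date. A gene's brightest probe by the mean of 6 arrays stands for it, and probes without a name here are not without a gene. Promoter windows came from RefSeq. The members, the 4 pathway lists and the settings were chosen with earlier results of these data known. The genes named are the 4 enzymes, all named genes of the synthesis list, all called and up to 4 uncalled genes of the other 3 lists, the 3 nearest profiles of each enzyme, and markers. Alternatives covered dim values, filter, variance model, array weights, normalization, a replicate block, each array left out and the probe rule. Figures were drawn with matplotlib 3.10.9.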

Additional observations from a re-analysis of the deposited data

How the results depend on the processing

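The 4 enzymes kept a negative log2 difference under all 16 alternatives. Leaving out 1 array gave -1.07 to -0.94 for Pmvk, -0.99 to -0.87 for Nsdhl, -0.60 to -0.51 for Lss and -0.63 to -0.51 for Dhcr7. Adding 100 to each value gave -0.89 for Pmvk, -0.60 for Nsdhl and -0.39 for Dhcr7, and an offset of 50 gave -0.76 for Nsdhl, since a larger added number shrinks the differences of dim probes. Counts of calls moved more. Probes changed, 1558 as reported, numbered 734 with values floored at 1, 2497 with 100 added, 2377 with a variance trend, 3079 with array weights, 736 with the replicate block and 257 to 1602 without single arrays. The synthesis list with the 4 enzymes counted in had 7 lower calls as fitted. This total includes the enzymes chosen for this contrast and is given only to show how it moved. It was 9 with an offset of 50, 100 added, a variance trend or array weights. With values floored at 1 it was 4, with the replicate block 2 and without single arrays 2 to 5. Without the enzymes, the 3 lower calls of the list became 5 with an offset of 50, 100 added, a variance trend or array weights. They became 0 with values floored at 1 or the replicate block, and 0 to 1 without single arrays. That count was added after the data were seen. The supply and control list had 2 lower calls with the replicate block and 2 to 5 without single arrays. Its higher calls numbered 5 with 100 added and 5 with a variance trend. They numbered 1 with values floored at 1, with the replicate block and with each single array left out in turn. Where they numbered 1, the call was Mbtps1, which passed the filter through the Gata4 siRNA group. The fatty acid list had 3 lower calls with the replicate block and 2 to 6 without single arrays. The isoprenoid list had 2 higher calls with an offset of 50, 100 added or a variance trend and 1 with the filter on all 6 arrays. Causes of these shifts in counts were not tested. No followed gene changed sign. Samples were not paired by replicate number except in the replicate block. Deviations of same-numbered arrays correlated at -0.05, -0.09 and -0.01 across probes, and none of the 3 Gata4 siRNA arrays correlated best with its own number. These values show no shared effect of a number, but they cannot exclude that the cultures were run in pairs. Dim probes moved most with the treatment of dim values: values floored at 1 and 100 added gave -0.95 and -0.26 for Lrp8, -1.68 and -0.56 for Osbpl8, and 1.77 and 0.37 for Mbtps1.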
